A study of Mus musculus with 42 samples.

Results

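RNA of 10 genes of the tumour necrosis factor (TNF) superfamily was followed in regulatory (Treg) and conventional (Tconv) CD4+ T cells after the T cell receptor was engaged with the anti-CD3 antibody KT3. The set holds 6 receptors (Tnfrsf4, Tnfrsf9, Tnfrsf18, Tnfrsf1b, Tnfrsf25 and Cd27) and 4 ligands (Tnfsf4, Tnfsf8, Tnfsf11 and Cd70). They were picked by name from 19752 genes on Affymetrix ST1.0 Gene arrays, and each is read by 1 transcript cluster, the array's set of probes for a gene. The series holds 42 arrays in 22 groups. For each cell type and each setting there are 2 arrays at 0, 2, 8, 24 and 72 h of KT3, and for each cell type 1 array taken in vivo 24 h after rat IgG, a control antibody. All cells came from spleens of NOD mice that carry the Foxp3-IRES-GFP reporter, in which green fluorescence marks cells that express Foxp3, so every comparison lies within this strain and allele. In vivo, females aged 8 weeks received KT3 at a dose the labels do not give, and the 0 h mice were not treated. CD4+ cells negative for B220, CD8a, CD11b and CD11c were sorted as GFP+ Treg or GFP- Tconv cells. The labels mark each in vivo array as single or double sorted. Number 1 was single sorted in every group but Tconv 8 h, where it was double. Number 2, which includes the IgG arrays, was double sorted in every group but Tconv 8 h and Treg 24 h, where it was single. In vitro, splenocytes were cultured with 1.25 µg/ml KT3, and array number 1 came from a female aged 9 weeks while number 2 came from a male aged 14 weeks. The labels of the in vitro Treg samples name a GFP- gate, and Foxp3, the gene that defines Treg cells, was nevertheless high on them. Over all 21 arrays of each cell type Foxp3 had log2 intensities of 11.30 to 12.34 in Treg and 7.02 to 8.20 in Tconv samples. Cd4 ranged over 10.41 to 11.45 in Treg and 10.45 to 11.84 in Tconv samples, and Cd3e, a chain of the T cell receptor complex, over 10.84 to 11.77 in Treg and 10.42 to 11.89 in Tconv samples.

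Ligands of the TNF superfamily are trimers on the surface of activated lymphocytes and antigen-presenting cells. They cluster their receptors, which then recruit TRAF adaptor proteins and activate NF-kB, the transcription factor family behind many survival and activation genes. In T cells several of the receptors act as costimulators, which add to the signal of the T cell receptor, and some of them, including OX40 (Tnfrsf4), GITR (Tnfrsf18) and the second TNF receptor (Tnfrsf1b), are known for high levels on Treg cells.

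Values are log2 intensities of single arrays, and 1 unit is a 2-fold difference. A difference is given as log2 with its standard error (SE) from a limma model of all 42 arrays, and it is called at an adjusted p (Benjamini-Hochberg over 12425 genes) under 0.05. Because the groups hold 2 arrays, their number limits the precision. In vitro the array number goes with the sex and age of the mouse, and the model does not pair the arrays by it. Nothing in the labels says that the in vivo arrays came from separate animals, so the p-values speak of the scatter among these arrays, and that scatter may be technical. The 4 times of a cell type and setting are compared with the same pair of 0 h arrays, and in bulk RNA fewer cells of a type and less RNA per cell cannot be told apart. One array stands apart: Tconv in vitro 0 h number 1 had an interquartile range of 1.64 log2 units, against 2.10 for the next narrowest. In vivo, number 1 had higher markers of most other cells than number 2: the mean level of the B cell, macrophage, neutrophil, platelet and CD8 T cell lists was higher on number 1 in 10 of 10 groups, by 0.76 to 2.27 for B cells and by 0.73 to 2.08 for macrophages, and that of the erythroid, plasma cell, dendritic cell and NK cell lists in 9, 9, 8 and 8. Among the receptors Tnfrsf4 and Tnfrsf18 were higher on number 1 in 8 of 10 groups, Tnfrsf9 in 7, Tnfrsf25 in 6, Tnfrsf1b in 4 and Cd27 in 2. Among the tested ligands Tnfsf8 was higher in 5, Tnfsf4 in 4 and Tnfsf11 in 0. By the labels number 1 was mostly single sorted and number 2 mostly double sorted. The part of other cells in the member values was not tested, nor was that of the sort mode in the marker levels.

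Tnfrsf4, Tnfrsf18 and Tnfrsf9 gave the most called responses to KT3, 11, 11 and 14 of 16 each. Their promoters are shown for that reason. All 3 genes lie on chromosome 4, where Tnfrsf4 and Tnfrsf18 are neighbours with only the small nuclear RNA gene Gm25982 listed between them. Each window runs from 250 bases before to 50 bases after a RefSeq start on the + strand of GRCm38.p6, and the sequences are RefSeq's. Capitals mark matches to the NF-kB motif and to the AP-1 motif TGANTCA, searched on both strands.
Tnfrsf4, chr4:156013445-156013744: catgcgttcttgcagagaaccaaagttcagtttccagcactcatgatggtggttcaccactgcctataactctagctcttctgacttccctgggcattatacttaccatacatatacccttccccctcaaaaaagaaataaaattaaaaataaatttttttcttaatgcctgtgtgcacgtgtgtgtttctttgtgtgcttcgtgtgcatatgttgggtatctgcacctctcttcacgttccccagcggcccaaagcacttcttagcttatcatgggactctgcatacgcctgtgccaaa
Tnfrsf18, chr4:156026072-156026371: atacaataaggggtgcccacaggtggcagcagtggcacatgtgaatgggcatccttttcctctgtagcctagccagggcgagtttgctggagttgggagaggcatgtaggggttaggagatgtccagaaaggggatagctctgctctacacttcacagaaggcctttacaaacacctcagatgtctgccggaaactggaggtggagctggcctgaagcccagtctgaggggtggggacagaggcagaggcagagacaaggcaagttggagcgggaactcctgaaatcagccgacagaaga
Tnfrsf9 upstream start, chr4:150919905-150920204: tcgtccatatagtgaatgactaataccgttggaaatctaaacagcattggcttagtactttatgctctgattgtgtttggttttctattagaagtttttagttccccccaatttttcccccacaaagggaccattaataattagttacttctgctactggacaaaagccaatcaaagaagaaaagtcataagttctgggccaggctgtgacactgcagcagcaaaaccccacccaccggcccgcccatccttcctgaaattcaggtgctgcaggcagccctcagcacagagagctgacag
Tnfrsf9 downstream start, chr4:150927749-150928048: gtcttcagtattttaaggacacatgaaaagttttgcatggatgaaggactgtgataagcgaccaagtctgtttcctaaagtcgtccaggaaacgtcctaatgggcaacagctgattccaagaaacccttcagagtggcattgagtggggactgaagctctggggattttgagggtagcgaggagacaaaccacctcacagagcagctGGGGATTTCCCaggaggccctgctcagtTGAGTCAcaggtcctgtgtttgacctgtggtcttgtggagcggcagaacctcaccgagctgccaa
The downstream Tnfrsf9 window holds a pair of overlapping NF-kB matches, 43 and 42 bases before the start, and an AP-1 match 15 bases before it. The other 3 windows hold neither motif. Of the members not shown, Tnfrsf25, with 2 called responses, has 2 NF-kB matches in 1 of its 2 windows. Among 32851 windows of the same length, 8.46% hold the NF-kB motif and 7.81% the AP-1 motif. The NFAT core GGAAA, on either strand, occurs 1 time in the Tnfrsf4 window, 2 times in the Tnfrsf18 window, and 2 and 3 times in the upstream and downstream Tnfrsf9 windows, where 1 of the 3 lies inside the NF-kB matches. That core is in 61.3% of all windows. A match is a string of letters and does not show that a factor binds.

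Tnfrsf4 encodes OX40, the receptor of the Tnfsf4 product. Its level in Treg cells in vivo was 10.85 and 10.68 at 0 h, 12.82 and 12.79 at 2 h, 12.49 and 12.54 at 8 h, 11.64 and 11.29 at 24 h, and 10.86 and 11.03 at 72 h. The Tconv arrays in vivo gave 8.39 and 7.76 at 0 h, 10.41 and 9.49 at 2 h, 10.70 and 10.18 at 8 h, 9.27 and 8.07 at 24 h, and 8.15 and 7.64 at 72 h. Both cell types stood above their 0 h arrays at 2 and 8 h, and at each time the Treg arrays were above the Tconv arrays. Tnfrsf4 rose in Treg cells by 2.03 ± 0.32 at 2 h (4.10-fold, adjusted p = 0.000119) and by 1.74 ± 0.32 at 8 h (adjusted p = 0.00085). In Tconv cells it rose by 1.88 ± 0.32 at 2 h (3.67-fold, adjusted p = 0.000533) and by 2.37 ± 0.32 at 8 h (5.16-fold, adjusted p = 9.77e-06). The 2 h call in Tconv cells was lost without number 1 of that group (1.42, adjusted p = 0.0649). At 24 h neither difference passed the test, with 0.70 ± 0.32 in Treg and 0.60 ± 0.32 in Tconv cells.

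In culture 3 of 4 Treg and 4 of 4 Tconv differences were called. Tnfrsf4 in Treg cells in vitro measured 10.91 and 10.79 at 0 h, 12.46 and 12.20 at 2 h, 12.59 and 12.18 at 8 h, 12.59 and 12.49 at 24 h, and 12.04 and 11.66 at 72 h. The Tconv arrays in vitro read 7.80 and 7.40 at 0 h, 10.08 and 10.02 at 2 h, 10.57 and 10.07 at 8 h, 10.91 and 10.54 at 24 h, and 9.63 and 9.16 at 72 h. Every later array in both cell types lay above its 0 h arrays. The largest difference came at 24 h in both, with 1.69 ± 0.32 in Treg cells (3.23-fold, adjusted p = 0.00179) and 3.12 ± 0.32 in Tconv cells (8.71-fold, adjusted p = 7.06e-07). At 72 h the Tconv difference of 1.79 ± 0.32 was called (adjusted p = 0.00126), and the Treg difference of 1.00 ± 0.32 just missed the threshold (adjusted p = 0.05), while with the array number as a block it was called (adjusted p = 0.00425). Without Treg in vitro 2 h number 1 or 8 h number 1, the Treg differences at those times were 1.35 (adjusted p = 0.0692) and 1.33 (adjusted p = 0.116).

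Tnfrsf18 encodes GITR, a receptor on Treg and activated T cells. Treg arrays in vivo gave 10.90 and 10.55 at 0 h, 12.02 and 12.14 at 2 h, 11.94 and 11.90 at 8 h, 11.32 and 11.11 at 24 h, and 10.96 and 11.04 at 72 h. Tconv arrays in vivo gave 9.47 and 9.06 at 0 h, 10.11 and 9.48 at 2 h, 10.62 and 10.31 at 8 h, 10.12 and 9.43 at 24 h, and 9.69 and 9.46 at 72 h. The Treg arrays were high at 2 and 8 h, and the Tconv arrays were highest at 8 h. The gene rose in Treg cells at 2 h (1.36 ± 0.27, adjusted p = 0.00152) and 8 h (1.19 ± 0.27, adjusted p = 0.00468), and in Tconv cells at 8 h (1.19 ± 0.27, adjusted p = 0.00188). The Treg calls did not survive every leave-one-out fit: without Treg 0 h number 2 the adjusted p was 0.0523 at 2 h and 0.0937 at 8 h, and without Treg 8 h number 1 it was 0.0509 at 8 h. The Tconv difference of 0.53 ± 0.27 at 2 h was not called (adjusted p = 0.404).

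In culture Tnfrsf18 was higher than at 0 h at every time in both cell types. The Treg arrays in vitro read 10.97 and 10.69 at 0 h, 11.86 and 11.68 at 2 h, 12.08 and 11.97 at 8 h, 12.20 and 12.25 at 24 h, and 11.91 and 11.52 at 72 h. The Tconv arrays in vitro read 8.37 and 9.47 at 0 h, 10.76 and 10.79 at 2 h, 10.67 and 10.79 at 8 h, 10.96 and 10.80 at 24 h, and 10.04 and 9.83 at 72 h. No later array fell within the range of its 0 h group, and the 0 h arrays of Tconv cells lay 1.10 apart. All 8 differences were called, and the largest stood at 24 h with 1.40 ± 0.27 in Treg cells (2.63-fold, adjusted p = 0.00196) and 1.96 ± 0.27 in Tconv cells (3.90-fold, adjusted p = 4.68e-05). Several rest on single arrays. The Treg call at 2 h (0.94 ± 0.27, adjusted p = 0.034) was lost without any of its 4 arrays, and that at 8 h (1.20 ± 0.27) without 8 h number 1 (1.14, adjusted p = 0.108). The Treg call at 72 h (0.89 ± 0.27, adjusted p = 0.0356) was lost without 0 h number 1 (1.03, adjusted p = 0.0785), 0 h number 2 (0.75, adjusted p = 0.13) or 72 h number 1 (0.69, adjusted p = 0.372). The Tconv difference at 72 h (1.01 ± 0.27, adjusted p = 0.0228) was 0.46 without 0 h number 1 (adjusted p = 0.801), 0.91 without 72 h number 1 (adjusted p = 0.206), 0.50 after quantile normalization (adjusted p = 0.0831), 1.12 without 72 h number 2 (adjusted p = 0.0709) and 1.57 without 0 h number 2.

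Tnfrsf9 encodes CD137, a costimulator induced on activated T cells. Its Treg levels in vivo were 9.66 and 9.46 at 0 h, 11.42 and 11.43 at 2 h, 12.44 and 12.55 at 8 h, 11.10 and 11.01 at 24 h, and 9.86 and 9.77 at 72 h. Its Tconv levels in vivo were 7.78 and 7.11 at 0 h, 10.0008 and 8.98 at 2 h, 11.19 and 10.74 at 8 h, 8.87 and 9.46 at 24 h, and 8.21 and 8.07 at 72 h. In both cell types the 8 h arrays were the highest and every array at 2, 8 and 24 h was above the 0 h arrays. The differences at 2 h were 1.87 ± 0.27 in Treg cells (3.65-fold, adjusted p = 4.13e-05) and 2.05 ± 0.27 in Tconv cells (4.13-fold, adjusted p = 1.76e-05). At 8 h the gene was 7.67-fold higher than at 0 h in Treg cells (adjusted p = 3.62e-07) and 11.5-fold higher in Tconv cells (adjusted p = 3.57e-09). At 24 h it was still up, by 1.50 ± 0.27 in Treg (adjusted p = 0.00667) and 1.72 ± 0.27 in Tconv cells (adjusted p = 0.000193), and the Treg call was lost without 24 h number 1 (1.46, adjusted p = 0.29) or 0 h number 2 (1.40, adjusted p = 0.251). The 72 h differences of 0.26 in Treg and 0.69 in Tconv cells were not called.

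In vitro all 8 differences were called. Tnfrsf9 in Treg cells read 9.99 and 9.71 at 0 h, 11.54 and 11.48 at 2 h, 12.52 and 11.98 at 8 h, 12.30 and 12.51 at 24 h, and 11.93 and 11.40 at 72 h. In Tconv cells it read 7.59 and 7.58 at 0 h, 8.36 and 8.37 at 2 h, 12.07 and 11.67 at 8 h, 10.06 and 10.30 at 24 h, and 9.95 and 9.89 at 72 h. The Tconv arrays were little above 0 h at 2 h and reached the range of the Treg arrays at 8 h, whereas the Treg arrays were high at all 4 times. At 2 h the Treg difference was 1.66 ± 0.27 (3.17-fold, adjusted p = 0.000175) and the Tconv difference 0.78 ± 0.27 (1.72-fold, adjusted p = 0.0371). The Tconv call at 2 h was lost without 0 h number 1 (adjusted p = 0.214), 2 h number 1 (adjusted p = 0.138) or 2 h number 2 (adjusted p = 0.112), and after quantile normalization (0.55, adjusted p = 0.113). At 8 h the gene rose by 2.40 ± 0.27 in Treg cells (5.29-fold, adjusted p = 1.92e-06) and by 4.28 ± 0.27 in Tconv cells (19.4-fold, adjusted p = 9e-11), the largest response of any member. At 24 and 72 h the differences were 2.56 ± 0.27 and 1.82 ± 0.27 in Treg cells, and 2.60 ± 0.27 and 2.33 ± 0.27 in Tconv cells, all called.

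Tnfrsf1b encodes the second TNF receptor, which binds the Tnf product. It measured 10.19 and 10.33 at 0 h, 10.78 and 11.02 at 2 h, 10.37 and 10.88 at 8 h, 10.19 and 10.44 at 24 h, and 10.21 and 10.44 at 72 h in Treg cells in vivo. Tconv cells in vivo had 8.43 and 8.18 at 0 h, 9.46 and 9.17 at 2 h, 8.84 and 8.99 at 8 h, 7.98 and 7.91 at 24 h, and 7.87 and 7.47 at 72 h. The Treg arrays moved little, while the Tconv arrays were highest at 2 h and lay below 0 h at 24 and 72 h. None of the Treg differences was called, the nearest being 0.64 ± 0.21 at 2 h (adjusted p = 0.0637). Tconv cells rose by 1.00 ± 0.21 at 2 h (2.00-fold, adjusted p = 0.00371) and 0.61 ± 0.21 at 8 h (adjusted p = 0.0364), and the later differences of -0.36 and -0.64 were not called. The 2 h call was lost without Tconv 2 h number 1 (0.86, adjusted p = 0.14) or 0 h number 2 (0.88, adjusted p = 0.1), and the 8 h call without any of its 4 arrays and after quantile normalization (0.36, adjusted p = 0.456).

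In culture 2 of 4 Treg and 4 of 4 Tconv differences were called for Tnfrsf1b. The Treg arrays in vitro measured 9.76 and 10.08 at 0 h, 11.40 and 11.40 at 2 h, 10.82 and 10.47 at 8 h, 10.33 and 10.32 at 24 h, and 10.15 and 9.95 at 72 h. The Tconv arrays in vitro measured 8.28 and 7.97 at 0 h, 10.38 and 10.44 at 2 h, 10.25 and 10.08 at 8 h, 9.61 and 9.23 at 24 h, and 9.15 and 8.71 at 72 h. Both cell types were highest at 2 h, and the Tconv arrays stayed above 0 h throughout. The 2 h rise was 1.48 ± 0.21 in Treg cells (2.79-fold, adjusted p = 2.15e-05) and 2.28 ± 0.21 in Tconv cells (4.87-fold, adjusted p = 1.72e-08). Treg cells were also called at 8 h (0.72 ± 0.21, adjusted p = 0.0361), a call lost without 0 h number 1 (0.56, adjusted p = 0.494) or 8 h number 1 (0.55, adjusted p = 0.504), and after quantile normalization (0.50, adjusted p = 0.374). Tconv cells were called at 8, 24 and 72 h with 2.03, 1.29 and 0.80, the last lost without 0 h number 1 (0.96, adjusted p = 0.0545) or 72 h number 1 (0.58, adjusted p = 0.256), and after quantile normalization (0.38, adjusted p = 0.304).

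Tnfrsf25 and Cd27 changed little. Tnfrsf25 encodes death receptor 3, a death-domain receptor on T cells. Over the 0 to 72 h groups its levels lay between 8.52 and 9.77 in Treg cells and between 8.56 and 9.91 in Tconv cells, and 2 of its 16 responses were called. Cultured Treg cells read 8.52 and 8.66 at 72 h, against 9.47 and 9.33 at 0 h, so the groups did not overlap and the level fell by 0.81 ± 0.19 (adjusted p = 0.0051). That call was lost without 0 h number 1 (-0.74, adjusted p = 0.0727) or 72 h number 1 (-0.74, adjusted p = 0.0863). Cultured Tconv cells read 9.91 and 9.58 at 24 h, against 9.01 and 9.01 at 0 h, a rise of 0.74 ± 0.19 (1.67-fold, adjusted p = 0.00982). Quantile normalization left 0.05 of that rise (adjusted p = 0.894), and the call was lost without 0 h number 1 (0.73, adjusted p = 0.124) or 24 h number 1 (0.57, adjusted p = 0.124).

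Cd27 encodes the receptor of CD70 and is expressed on resting T cells. Treg cells in vivo had 10.76 and 10.89 at 0 h, 9.67 and 10.005 at 2 h, 10.32 and 10.44 at 8 h, 10.77 and 10.95 at 24 h, and 10.64 and 10.85 at 72 h. The 2 and 8 h arrays lay below those of 0 h, and the 2 h arrays were the lowest. At 2 h the level fell by 0.99 ± 0.29 (adjusted p = 0.0355), a call lost without any of its 4 arrays, with differences of -0.82 to -1.16, and after median centring (-0.92, adjusted p = 0.0866). In Tconv cells in vivo no difference was called, and the arrays lay between 10.15 and 10.73. Cultured Treg arrays lay between 9.98 and 11.11 with no called difference. Among cultured Tconv cells the 0 h arrays read 8.82 and 10.34, more than 1 unit apart, and the 24 h arrays read 10.46 and 10.34. That difference was called (0.82 ± 0.29, adjusted p = 0.0398) although the groups overlapped, and without 0 h number 1, the array that stands apart, it was 0.06 (adjusted p = 0.938). It was 1.58 without 0 h number 2, and the call was also lost without either 24 h array (0.76 and 0.88). The 72 h difference of 0.92 was called with the block (adjusted p = 0.0282, against 0.0504).

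**Figure D1:**
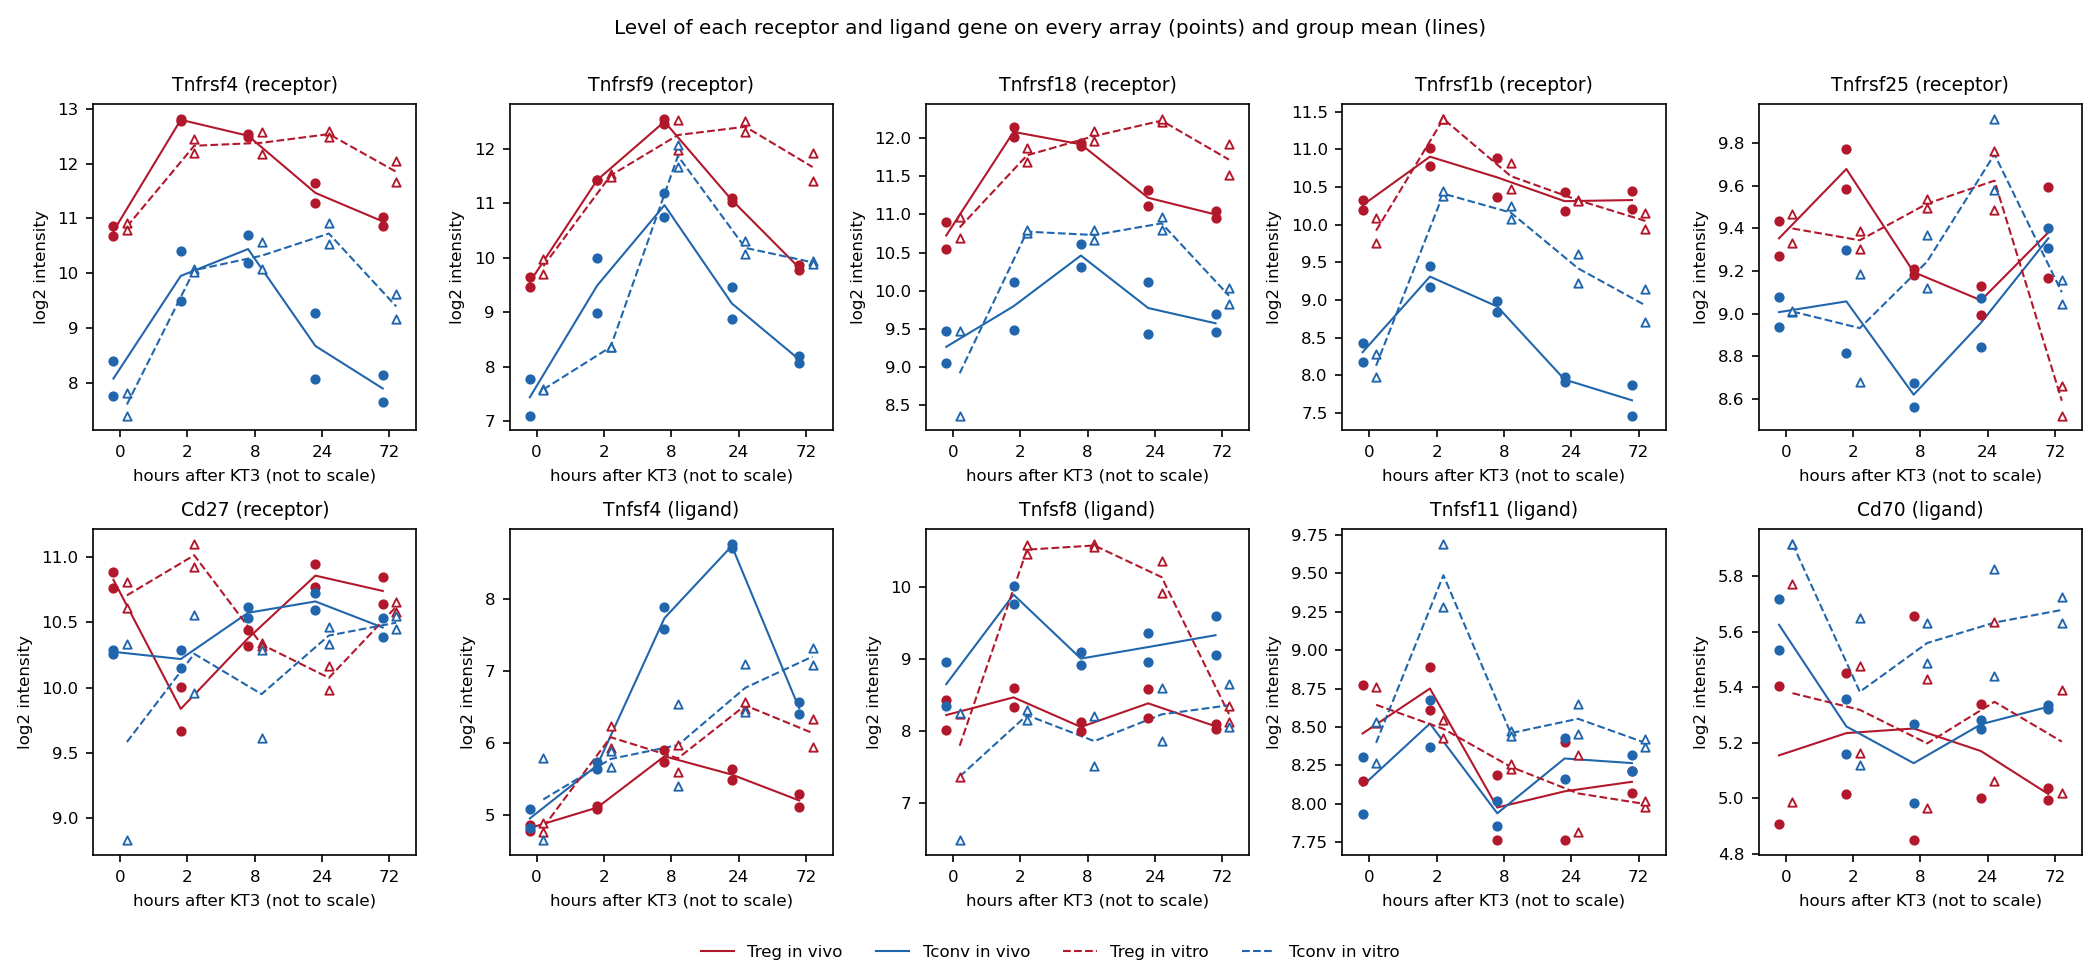
Log2 intensity (vertical axis) of the 10 genes at 0, 2, 8, 24 and 72 h of KT3 (horizontal axis, not to scale), 1 panel per gene. Points are single arrays and lines join group means; red is Treg and blue is Tconv, filled circles with solid lines are in vivo and open triangles with dashed lines are in vitro. Tnfrsf4 lies higher in Treg cells at every time, and Tnfsf4 reaches 8.70 and 8.76 in Tconv cells in vivo at 24 h.

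The ligands had fewer called responses. Tnfsf4 encodes OX40 ligand, best known from antigen-presenting cells and also made by activated T cells. It was dim, above the array median on 9 of 42 arrays. All of these were Tconv arrays in vivo at 8 and 24 h or arrays of cultured cells at 24 and 72 h. Tnfsf4 thus entered the tests only through arrays taken after KT3. Every 0 h array and every Treg array in vivo lay below its array median, where small differences are less certain. Its Treg values in vivo were 4.87 and 4.78 at 0 h, 5.08 and 5.13 at 2 h, 5.73 and 5.90 at 8 h, 5.49 and 5.64 at 24 h, and 5.29 and 5.12 at 72 h. Its Tconv values in vivo were 4.82 and 5.09 at 0 h, 5.74 and 5.65 at 2 h, 7.89 and 7.58 at 8 h, 8.70 and 8.76 at 24 h, and 6.40 and 6.57 at 72 h. The Tconv arrays at 8 and 24 h stood far above all Treg arrays and above their own 0 h arrays, and the Treg arrays stayed under 6. Tnfsf4 rose in Tconv cells by 2.78 ± 0.30 at 8 h (6.85-fold, adjusted p = 4.58e-07), was 13.7-fold higher at 24 h (adjusted p = 2.7e-08) and 2.88-fold higher at 72 h (1.53 ± 0.30, adjusted p = 0.015). The 72 h call was lost without any of its 4 arrays, with differences of 1.39 to 1.66. In Treg cells only the 8 h difference of 0.99 ± 0.30 was called (adjusted p = 0.033), and it was lost without any of its 4 arrays and after an offset of 16 was added (0.71, adjusted p = 0.0569).

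Dendritic cells and B cells can carry OX40 ligand, so their markers are given beside the Tconv values. The dendritic cell markers (5 of 5 measured, 3 tested) averaged 5.75 and 5.54 at 24 h, against 5.80 and 5.72 at 0 h. Those left out of the tests as dim are part of these means. The B cell markers (5 of 6 measured, all tested) averaged 6.47 and 5.72 at 24 h, against 6.91 and 5.66 at 0 h. The part of these cells in the Tnfsf4 values was not tested.

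In culture Tnfsf4 went up in both cell types. The Treg arrays in vitro read 4.90 and 4.77 at 0 h, 6.24 and 5.93 at 2 h, 5.61 and 5.98 at 8 h, 6.47 and 6.57 at 24 h, and 6.34 and 5.95 at 72 h. The Tconv arrays in vitro read 5.79 and 4.65 at 0 h, 5.67 and 5.89 at 2 h, 5.41 and 6.54 at 8 h, 6.43 and 7.10 at 24 h, and 7.08 and 7.32 at 72 h. The Treg arrays were all above 0 h from 2 h on, and the Tconv arrays were clear of 0 h at 24 and 72 h. In Treg cells the rise was 1.25 ± 0.30 at 2 h (adjusted p = 0.00989), 1.69 ± 0.30 at 24 h (3.22-fold, adjusted p = 0.000802) and 1.30 ± 0.30 at 72 h (adjusted p = 0.00437), and the 8 h difference of 0.95 was not called. The 2 h call was lost without 0 h number 1 (1.31, adjusted p = 0.0663) or 2 h number 1 (1.09, adjusted p = 0.127), and the 72 h call without 72 h number 1 (1.11, adjusted p = 0.106). In Tconv cells the rise was 1.55 ± 0.30 at 24 h (2.92-fold, adjusted p = 0.00169) and 1.98 ± 0.30 at 72 h (3.94-fold, adjusted p = 0.000189), and without 0 h number 2 the 24 h value was 0.98, still called.

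Tnfsf8 encodes CD30 ligand. Treg arrays in vivo read 8.43 and 8.01 at 0 h, 8.59 and 8.34 at 2 h, 8.12 and 7.99 at 8 h, 8.58 and 8.18 at 24 h, and 8.10 and 8.03 at 72 h. Treg arrays in vitro read 7.36 and 8.23 at 0 h, 10.57 and 10.45 at 2 h, 10.60 and 10.55 at 8 h, 10.35 and 9.91 at 24 h, and 8.12 and 8.34 at 72 h. The cultured Treg cells were high at 2, 8 and 24 h, clear of every in vivo Treg array, and had come back by 72 h. They rose by 2.72 ± 0.39 at 2 h (6.59-fold, adjusted p = 2.98e-05), 2.78 ± 0.39 at 8 h (6.85-fold, adjusted p = 3.57e-05) and 2.34 ± 0.39 at 24 h (5.06-fold, adjusted p = 0.00041), while no in vivo difference was called in Treg cells. Tconv cells in vivo had 8.34 and 8.96 at 0 h, 9.77 and 10.01 at 2 h, 8.91 and 9.09 at 8 h, 8.96 and 9.36 at 24 h, and 9.06 and 9.60 at 72 h. Tconv cells in vitro had 6.48 and 8.25 at 0 h, 8.29 and 8.15 at 2 h, 7.52 and 8.20 at 8 h, 7.86 and 8.60 at 24 h, and 8.06 and 8.66 at 72 h. The cultured Tconv arrays overlapped their 0 h pair, which spanned 1.77 units. No Tconv difference was called, the nearest being 1.24 ± 0.39 in vivo at 2 h, where the arrays did not overlap those of 0 h (adjusted p = 0.0805).

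Tnfsf11 encodes RANK ligand, known for driving osteoclasts and also made by activated T cells. Its arrays lay between 7.76 and 8.89 in Treg and between 7.86 and 8.68 in Tconv cells in vivo, and no in vivo difference was called. Cultured Tconv cells had 9.28 and 9.69 at 2 h, against 8.53 and 8.26 at 0 h, a rise of 1.09 ± 0.23 (2.13-fold, adjusted p = 0.00187) without overlap. After quantile normalization it was 0.44 and not called (adjusted p = 0.276). By 8 h the Tconv arrays were back at 8.48 and 8.44. Cultured Treg arrays lay between 7.82 and 8.76 with no called difference, but with the block those at 24 h (-0.58, adjusted p = 0.0419) and 72 h (-0.65, adjusted p = 0.0162) were called as lower. Cd70, the ligand of Cd27, lay between 4.85 and 5.92, above the array median on 0 of 42 arrays, and did not enter the tests. Without the filter on dim genes, 0 of its 40 comparisons were called.

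Counted over the 16 comparisons with 0 h, the 6 receptors were called in 48 of 96 tests, 46 of them higher and 2 lower after KT3. The 3 tested ligands were called in 13 of 48, all higher. Of these calls 9 were of Tnfsf4, which entered the tests only through arrays taken after KT3. Over all genes 9.36% of the tests in these comparisons were called, 7.13% as higher and 2.23% as lower. Below, each count over the 9 tested members is set beside the share of all 12425 genes called and beside the median change. The members were chosen by name, with earlier results of these data known, and not at random. The share over all genes is therefore no matching yardstick. Tnfsf4, let into the tests by its arrays after KT3, is part of these counts and medians.

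In Treg cells in vivo 4 members were called at 2 h (3 higher and Cd27 lower, 6.45% of all genes called), 4 at 8 h (9.67%), 1 at 24 h (0.483%) and 0 at 72 h (0.0241%). At 72 h the limma test also gave 0 members at an unadjusted p under 0.05. The median over members at 2, 8, 24 and 72 h was 0.32, 0.37, 0.16 and 0.07, against -0.06, -0.02, 0.01 and 0.01 over all genes. In Tconv cells in vivo 3, 5, 2 and 1 members were called at these times, all higher, beside 3.51%, 21%, 2.4% and 0.29% of all genes. Their medians were 0.74, 0.61, 0.51 and 0.31, against -0.05, -0.06, -0.01 and 0.00. In both cell types the counts were largest at 2 or 8 h. Single arrays carry part of them. Treg counts at 2 h fell to 2 without 0 h number 2, those at 8 h to 2 without 0 h number 2 or 8 h number 1, and that at 24 h to 0 without 0 h number 2 or 24 h number 1. The Tconv count at 2 h fell to 1 without 2 h number 1, and that at 72 h to 0 without any of its 4 arrays.

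In Treg cells in vitro 6, 5, 5 and 4 members were called at 2, 8, 24 and 72 h, beside 5.64%, 5.61%, 5.95% and 9.11% of all genes, and all were higher but Tnfrsf25 at 72 h. Their medians were 1.25, 0.95, 1.40 and 0.44, against -0.02, 0.07, 0.07 and 0.05 over all genes. In Tconv cells in vitro 5, 4, 7 and 5 members were called, all higher, beside 26.3%, 18.9%, 26.8% and 7.55% of all genes. Their medians were 0.85, 0.75, 1.29 and 0.99, against 0.06, 0.02, 0.23 and 0.15. A larger share of all genes was called in cultured Tconv than in cultured Treg cells at 2, 8 and 24 h. Treg counts fell to 3 at 2 h without 2 h number 1, to 2 at 8 h without 8 h number 1, and at 72 h to 2 without 0 h number 1 and to 1 without 72 h number 1. The Tconv count at 72 h was 3 without 0 h number 1 or 72 h number 1. With array quality weights, which gave both Tconv in vitro 0 h arrays a weight of 0.109, the Tconv counts were 1, 1, 0 and 0.

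**Figure D2:**
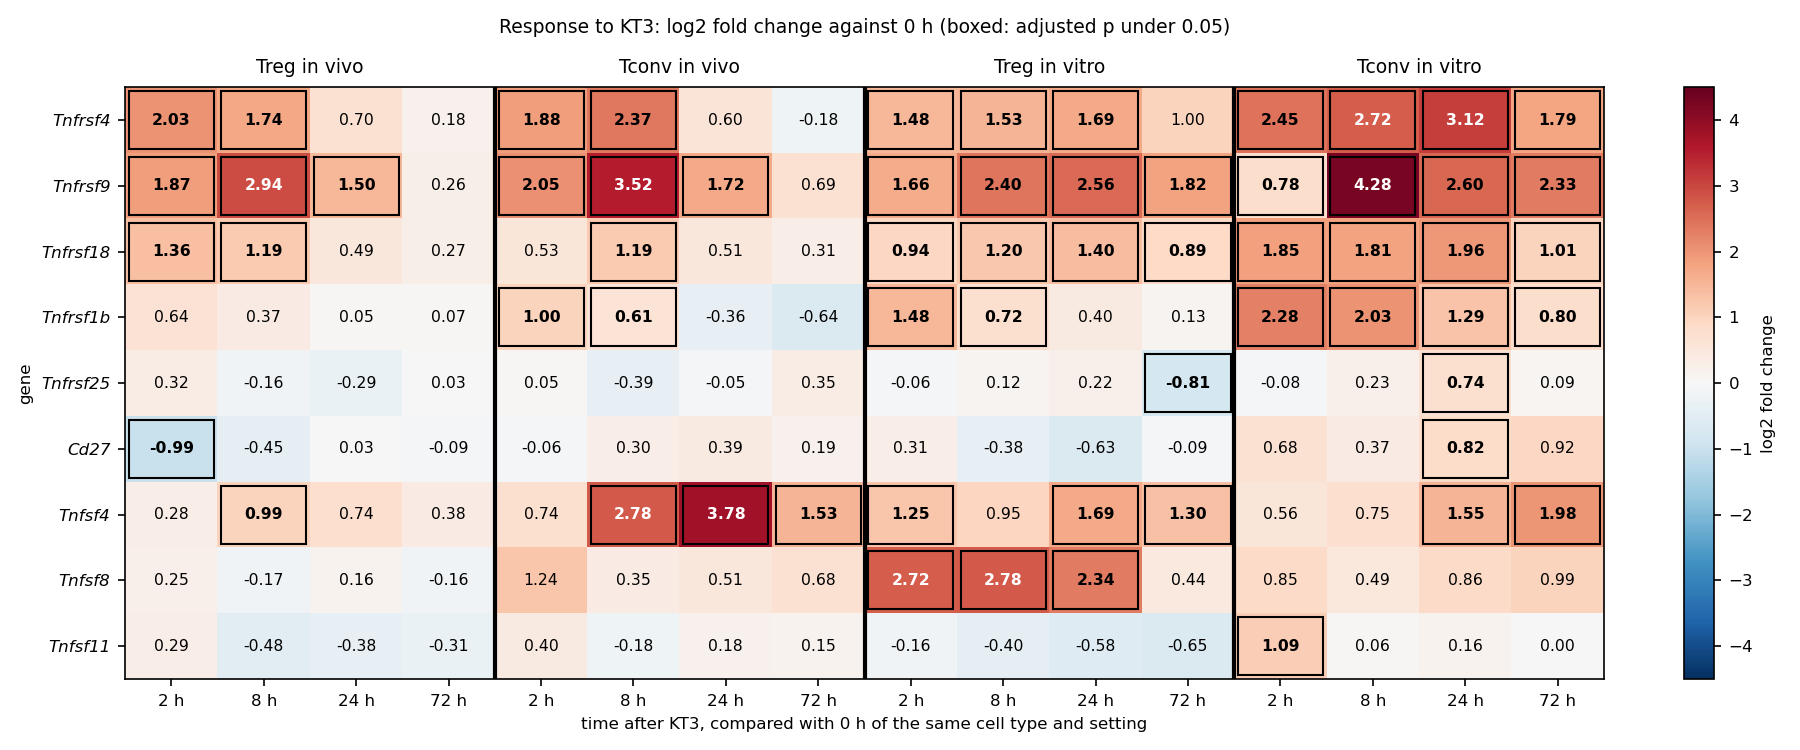
Log2 fold change against 0 h of the 9 tested genes (rows) at 2, 8, 24 and 72 h in Treg in vivo, Tconv in vivo, Treg in vitro and Tconv in vitro (columns); red is higher and blue is lower than 0 h, and boxes mark an adjusted p under 0.05. In vitro, boxes fill the rows of Tnfrsf9 and Tnfrsf18, and that of Tnfrsf4 except in Treg cells at 72 h. The highest value is 4.28 for Tnfrsf9 in Tconv cells in vitro at 8 h.

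The next comparison set Treg against Tconv cells before KT3. At 0 h in vivo 4 of 9 members were higher in Treg cells, Tnfrsf4, Tnfrsf9, Tnfrsf18 and Tnfrsf1b, and 3.1% of all genes were called. In vitro the same 4 and Cd27 were higher, and 11.2% were called. The member medians were 0.55 in vivo and 1.13 in vitro, against 0.00 and 0.18 over all genes. Tnfrsf4 was 6.47-fold higher in Treg cells in vivo (2.69 ± 0.32, adjusted p = 3.25e-06) and 9.51-fold higher in vitro (3.25 ± 0.32, adjusted p = 2.44e-07). Tnfrsf9 was 4.33-fold higher in vivo and 4.79-fold in vitro, Tnfrsf1b 3.87-fold and 3.46-fold, and Tnfrsf18 2.75-fold and 3.75-fold. The Tnfrsf18 call in vivo was lost without Treg 0 h number 1 (1.28, adjusted p = 0.0528). The Cd27 difference in vitro (1.13 ± 0.29, adjusted p = 0.0176) was 0.37 without Tconv 0 h number 1 (adjusted p = 0.795), 1.88 without number 2, and lost its call without Treg 0 h number 2 (1.03, adjusted p = 0.24). With array quality weights the in vitro count was 0. No ligand was called between the resting cell types: Tnfsf4 gave -0.13 in vivo and -0.38 in vitro, and Tnfsf8 -0.43 and 0.43.

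These 4 receptors, singled out by their calls at 0 h, were then followed after KT3. Of their 32 comparisons between the cell types at 2 to 72 h, 30 were called, all higher in Treg. Over all genes 9.14% of these tests were called, and 6.8% were called as higher. Those shares are no matching yardstick, because the receptors were picked as higher in Treg at 0 h and all genes were not. A difference already present at 0 h can carry over to the later times, so the count is a description only. Both exceptions were at 8 h in vitro, where Tnfrsf9 differed by 0.38 ± 0.27 (adjusted p = 0.278) with overlapping arrays and Tnfrsf1b by 0.48 ± 0.21 (adjusted p = 0.083). In vivo 5 members were called at each of 2, 8, 24 and 72 h, 4 higher and 1 lower in Treg, beside 3.45%, 4.27%, 3.2% and 3.6% of all genes. The medians were 0.62, 0.57, 0.20 and 0.28, against 0.03, -0.02, -0.01 and 0.04. In vitro 6, 3, 5 and 5 members were called, beside 3.27%, 23.8%, 21.3% and 10.3%, and the medians were 0.99, 0.38, 0.90 and 0.12, against 0.00, 0.02, -0.05 and 0.05. The in vitro count at 24 h was 3 without Treg 24 h number 1.

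After KT3 the widest gap among the receptors was that of Tnfrsf9 in vitro at 2 h (3.15 ± 0.27, 8.85-fold, adjusted p = 1.49e-08). It was 3.05 ± 0.32 for Tnfrsf4 in vivo at 72 h (adjusted p = 4.65e-07) and 2.66 ± 0.21 for Tnfrsf1b in vivo at 72 h (6.30-fold, adjusted p = 6.25e-09). Tnfrsf18 differed most in vivo at 2 h, by 2.28 ± 0.27 (4.86-fold, adjusted p = 2.23e-06). Some smaller gaps rest on single arrays. That of Tnfrsf18 in vivo at 24 h (1.44) was 1.10 without Tconv 24 h number 2 (adjusted p = 0.0693), and that in vitro at 2 h (1.00, adjusted p = 0.0344) lost its call without any of its 4 arrays. Tnfrsf1b lost its call in vitro at 2 h without Tconv 2 h number 1 (0.96, adjusted p = 0.0582), and at 24 h without Treg 24 h number 1 (0.90, adjusted p = 0.0542) or Tconv 24 h number 2 (0.71, adjusted p = 0.054). Quantile normalization took its calls in vitro at 2, 24 and 72 h, with differences of 0.83, 0.73 and 0.80 (adjusted p = 0.115, 0.0637 and 0.0593).

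Tnfsf4 and Tnfsf8 ran the other way in vivo. Tnfsf4 was lower in Treg than in Tconv cells by 1.92 at 8 h (log2 -1.92 ± 0.30, adjusted p = 0.000137), by 3.17 at 24 h (-3.17 ± 0.30, adjusted p = 7.47e-08) and by 1.28 at 72 h (-1.28 ± 0.30, adjusted p = 0.0114). The 72 h call was lost without any of its 4 arrays, as was that at 72 h in vitro (-1.06 ± 0.30, adjusted p = 0.0222). Tnfsf8 was lower in Treg cells in vivo at 2 h (-1.42 ± 0.39, adjusted p = 0.0368), a call lost without any of its 4 arrays and after median centring (-1.32, adjusted p = 0.0945). In vitro Tnfsf8 was instead higher in Treg cells at 2 h (2.30 ± 0.39, 4.91-fold, adjusted p = 0.000377), 8 h (2.71 ± 0.39, 6.56-fold, adjusted p = 1.96e-05) and 24 h (1.90 ± 0.39, adjusted p = 0.00186). The 24 h call was lost without Tconv 24 h number 1 (1.53, adjusted p = 0.0707) or Treg 24 h number 1 (1.68, adjusted p = 0.0502). Tnfsf11 was lower in Treg cells in vitro at 2 h (-1.00 ± 0.23, adjusted p = 0.00951), with the call lost without Treg 2 h number 1 (-1.06, adjusted p = 0.0589), Treg 2 h number 2 (-0.94, adjusted p = 0.115) or Tconv 2 h number 2 (-0.79, adjusted p = 0.2), and after quantile normalization (-1.08, adjusted p = 0.0778). With the block it was also called at 24 h in vitro (-0.49, adjusted p = 0.0419).

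**Figure D3:**
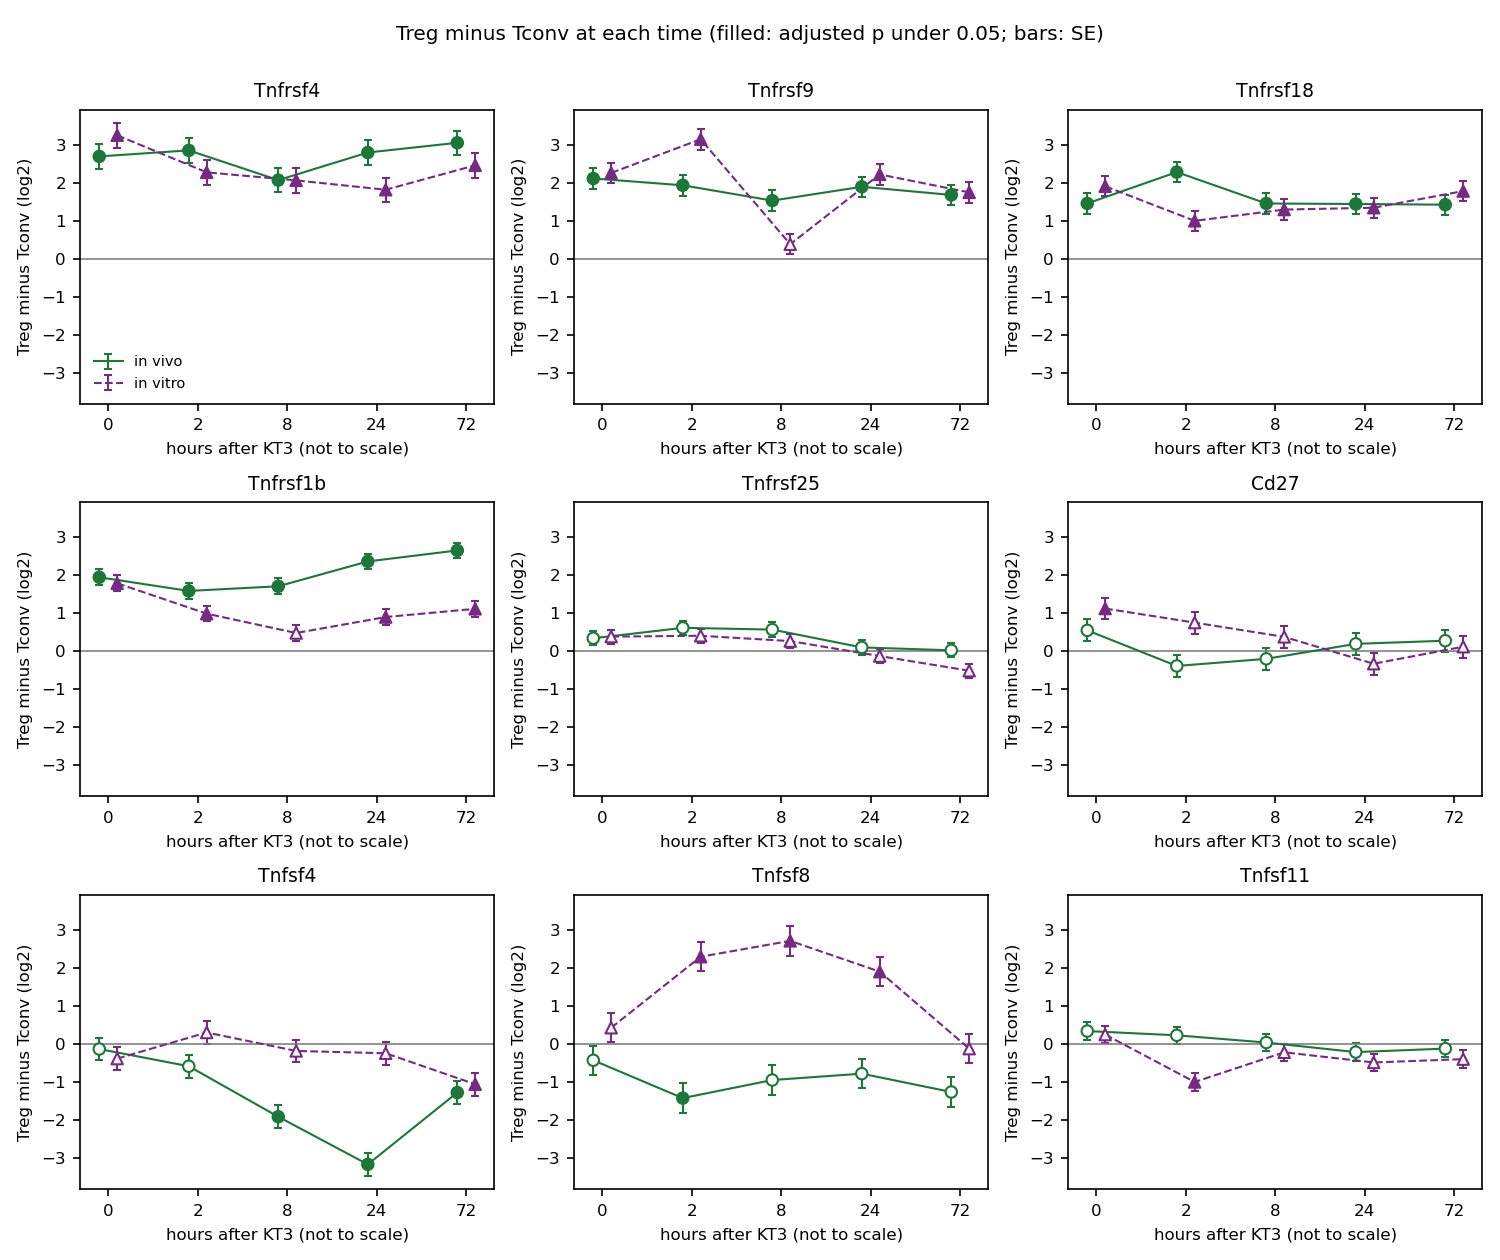
Treg minus Tconv log2 difference (vertical axis, bars are SE) of the 9 tested genes at 0, 2, 8, 24 and 72 h (horizontal axis); green is in vivo, purple is in vitro, and filled points have an adjusted p under 0.05. Tnfrsf4 stays above 0 in both settings, Tnfsf4 falls to -3.17 in vivo at 24 h, and Tnfsf8 stands at 2.71 in vitro and -0.95 in vivo at 8 h.

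Whether the response itself differed between the cell types was tested as the Treg change minus the Tconv change. In vivo 0, 0, 1 and 0 members were called at 2, 8, 24 and 72 h, beside 0.0483%, 0.233%, 0.0644% and 0.0161% of all genes. At an unadjusted p under 0.05 the limma test gave 2, 1, 1 and 2. In vitro 0, 3, 0 and 0 were called, beside 0.145%, 0.652%, 0.491% and 1.79%, and 6, 4, 5 and 3 had an unadjusted p under 0.05. The in vivo call was Tnfsf4 at 24 h, whose change was smaller in Treg cells by 3.04 (-3.04 ± 0.42, adjusted p = 0.00185). It held in every fit that left out 1 array. At 8 h its difference was -1.78 ± 0.42 (adjusted p = 0.0893), and 6 of the alternatives called it. In vitro at 8 h the change of Tnfrsf9 was smaller in Treg cells (-1.88 ± 0.38, adjusted p = 0.017), as was that of Tnfrsf1b (-1.31 ± 0.29, adjusted p = 0.0312), and that of Tnfsf8 was larger (2.29 ± 0.55, adjusted p = 0.0498). These 3 calls are not firm: the count was 0 without Tconv 8 h number 1, Treg 0 h number 1 or Treg 8 h number 2, and 5 without Tconv 0 h number 2. After quantile normalization, median centring or separate fits per setting 1 call was left, and with array quality weights 0. Without Tconv 0 h number 2 the Tnfsf8 difference was 1.40, and the counts at 2, 24 and 72 h were 4, 2 and 3. Without Tconv 0 h number 1 they were 1 at 2 h and 1 at 24 h. With the array number as a block 2 more in vitro differences were called, that of Tnfsf11 at 2 h (-1.25, adjusted p = 0.0285) and that of Tnfrsf4 at 24 h (-1.43, adjusted p = 0.0358).

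The same genes were compared between the settings, as the in vivo change minus the in vitro change, with an F-test over the 4 times. In Treg cells 4 members were called, beside 10.9% of all genes, and in Tconv cells 5, beside 6.37%. Tnfrsf9 was called in both. Its largest difference came at 72 h, with -1.56 in Treg cells (adjusted p of the F-test = 0.00109) and -1.64 in Tconv cells (adjusted p = 0.000179), the in vitro change being the larger. At 2 h the Tconv difference was 1.27 ± 0.38, the in vivo change being the larger. That time gave the largest Tconv difference after quantile normalization (1.46) and without in vivo 0 h number 1 (1.61) or in vivo 2 h number 2 (1.78), and the F-test stayed called in these fits. In Treg cells Tnfsf8 differed most, by -2.94 at 8 h (adjusted p = 0.00115). Tnfrsf25 differed by 0.83 at 72 h (adjusted p = 0.00484) and Cd27 by -1.30 at 2 h (adjusted p = 0.0182). The Cd27 call was lost without number 1 of the in vivo 2 h pair (adjusted p = 0.128), either in vitro 2 h array (adjusted p = 0.094 and 0.0531) or in vitro 24 h number 2 (adjusted p = 0.0501). Tnfrsf4 and Tnfrsf1b were not called in Treg cells (adjusted p = 0.0669 and 0.271), nor was Tnfrsf18 (adjusted p = 0.0965). With the block Tnfrsf4 (adjusted p = 0.00372) and Tnfrsf18 (adjusted p = 0.0475) were called in Treg cells, and Tnfrsf18 in Tconv cells (adjusted p = 0.0308, against 0.0669).

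In Tconv cells the change of Tnfsf4 was larger in vivo, by 2.23 at 24 h (adjusted p = 0.000147). Tnfrsf4 and Tnfrsf1b had the larger change in culture, with -2.53 at 24 h for Tnfrsf4 (adjusted p = 0.00143) and -1.66 at 24 h for Tnfrsf1b (adjusted p = 0.0027). Tnfrsf1b was not called after quantile normalization (-1.19, adjusted p = 0.185) or with array quality weights (adjusted p = 0.239). Tnfrsf25 had -0.79 at 24 h (adjusted p = 0.0272). Its call was lost after quantile normalization, where the largest difference was 0.81 in the opposite direction (adjusted p = 0.0752), after median centring (adjusted p = 0.0917), and without in vivo 8, 24 or 72 h number 2 (adjusted p = 0.0585, 0.0862 and 0.0594), in vitro 24 h number 1 (adjusted p = 0.0948) or in vitro 8 or 72 h number 2 (adjusted p = 0.0519 and 0.0587). The settings also differ in the age and sex of the mice, which cannot be told apart from the way KT3 was given.

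**Figure D4:**
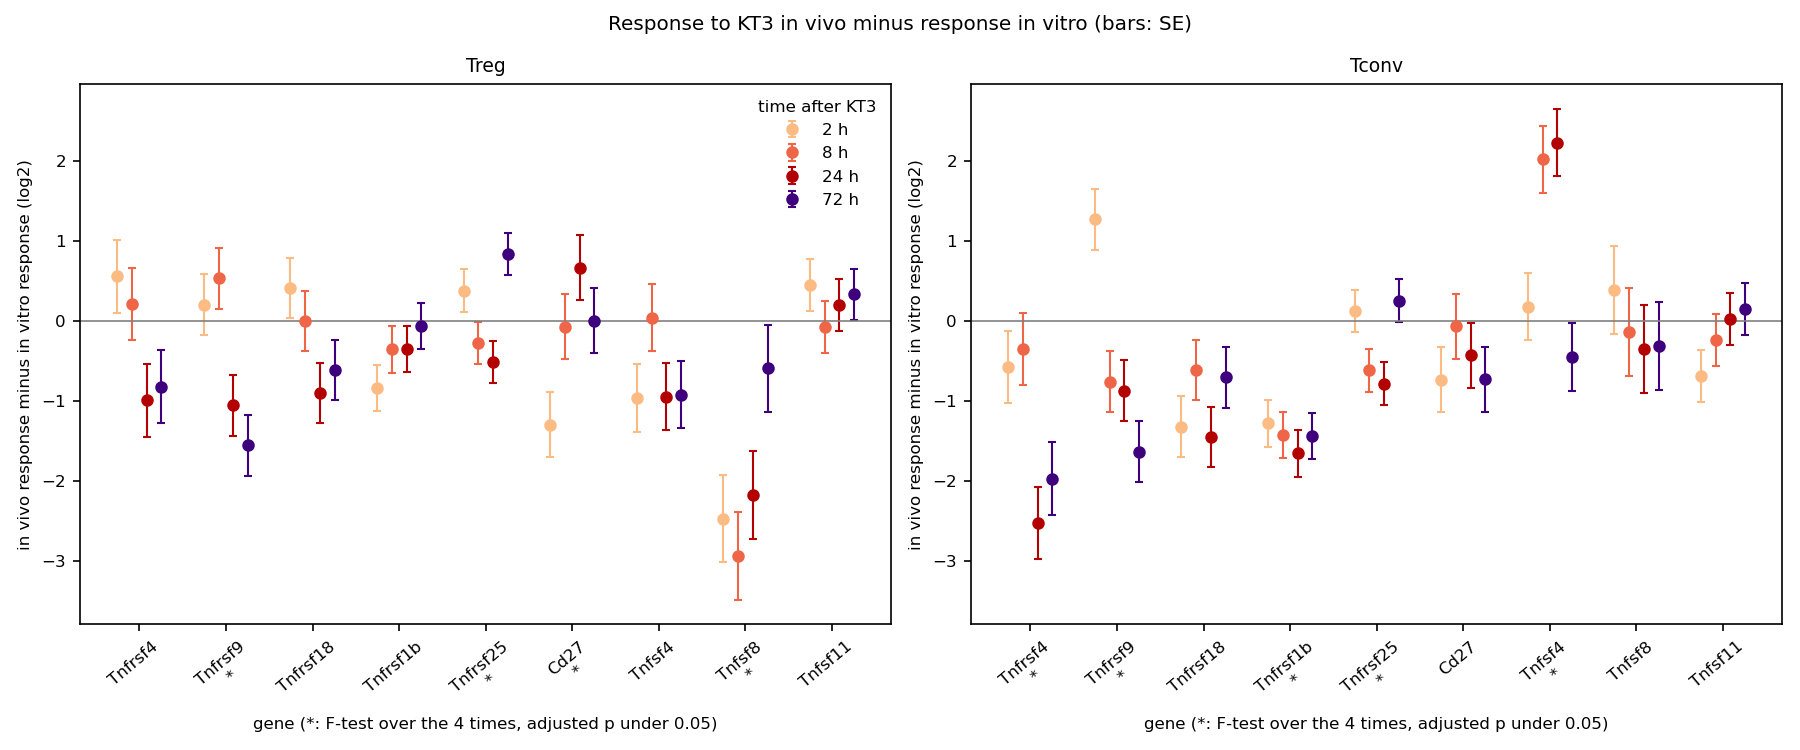
In vivo minus in vitro response (log2 change against 0 h, difference between settings) of the 9 tested genes at 2, 8, 24 and 72 h, with Treg and Tconv cells in separate panels; a star marks an adjusted p of the F-test under 0.05. A negative value means that the log2 change was lower in vivo, as for Tnfsf8 in Treg cells at 8 h (-2.94), and a positive one that it was higher in vivo, as for Tnfsf4 in Tconv cells at 24 h (2.23); neither says in which setting the level moved more.

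Rat IgG served as the control for the injection, with 1 array per cell type. Both Treg arrays at 24 h of KT3 were single sorted and the Treg IgG array was double sorted. In Treg cells KT3 and the sort mode can therefore not be told apart in this comparison. The spread of these lone arrays was taken to be that of the other groups, so the tests do not include the variation of the IgG samples themselves. At 24 h after KT3 Tnfrsf9 read 11.10 and 11.01 in Treg cells, against 9.31 after IgG, and 8.87 and 9.46 in Tconv cells, against 7.59 after IgG. Tnfsf4 read 8.70 and 8.76 in Tconv cells after KT3, against 5.40 after IgG. All KT3 arrays of these pairs stood above the IgG array. In Treg cells 1 member was called, Tnfrsf9 (1.75 ± 0.33, 3.37-fold, adjusted p = 0.0187), beside 0.274% of all genes, with medians of 0.41 over members and 0.10 over all genes. In Tconv cells 2 were called, Tnfrsf9 (1.57 ± 0.33, 2.97-fold, adjusted p = 0.00855) and Tnfsf4 (3.33 ± 0.36, 10.1-fold, adjusted p = 1.19e-05), beside 1.47%, with medians of 0.25 and -0.04. The Treg count was 0 without Treg 24 h number 1 (1.71, adjusted p = 0.25), after quantile normalization (1.58, adjusted p = 0.0523), with the sort mode as a covariate (1.64, adjusted p = 0.125) and in separate fits (adjusted p = 0.0539), and the Tnfrsf9 call in Tconv cells was lost without Tconv 24 h number 2 (1.28, adjusted p = 0.102). IgG itself against 0 h gave 0 called members in Treg and 0 in Tconv cells by limma, with 0 and 0 at an unadjusted p under 0.05, and 0% of all genes were called in either.

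Other genes of the pathway were read from 5 lists, chosen with earlier results of these data known. Shares over all genes are therefore no matching yardstick for their counts, which are a description only. The shares of all genes called at each time are those given above beside the member counts. Of the members' partners, 5 of 7 entered the tests, Tnfsf15 and Tnfsf18 being dim. In vivo 3, 2, 0 and 0 of them rose in Treg cells at 2, 8, 24 and 72 h, and 2, 2, 0 and 0 in Tconv cells. The 3 at 2 h in Treg cells were Lta, a soluble ligand of the TNF receptors (1.88 ± 0.22, adjusted p = 2.76e-06), Tnf (1.71 ± 0.30, adjusted p = 0.000345) and Tnfrsf8, the CD30 receptor of the Tnfsf8 product (1.20 ± 0.29, adjusted p = 0.0099). The partners' median at 2 h was 1.20 in Treg and 0.17 in Tconv cells, against -0.06 and -0.05 over all genes. The Tnfrsf8 call was lost after quantile normalization (adjusted p = 0.102) and without Treg 2 h number 1 (adjusted p = 0.15), 0 h number 1 (adjusted p = 0.0539) or 0 h number 2 (adjusted p = 0.106). Tnfrsf8 was 2.14 ± 0.29 higher in Treg than in Tconv cells in vivo at 2 h (adjusted p = 2.36e-05). In vitro 0, 1, 4 and 0 partners rose in Treg cells and 2, 2, 0 and 0 in Tconv cells. Of all genes 26.3%, 18.9%, 26.8% and 7.55% were called in these Tconv comparisons. Over the 16 responses 18 of 80 partner pairs were higher and 1 lower, beside 7.13% and 2.23% of the tests over all genes. Tnfrsf11a, the receptor of the Tnfsf11 product, was lower in Tconv cells in vitro at 24 h (-0.79 ± 0.26, adjusted p = 0.0307), but without 0 h number 1 the difference was -0.12 (adjusted p = 0.861), and the call was also lost without either 24 h array (adjusted p = 0.126 and 0.0998).

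In the list of NF-kB pathway genes (14 of 16 tested) 87 of 224 gene and time pairs were higher and 0 lower, beside 7.13% and 2.23% of the tests over all genes. At 2, 8, 24 and 72 h it had 7, 5, 1 and 0 higher genes in Treg cells in vivo and 8, 5, 0 and 0 in Tconv cells in vivo. In vitro 9, 7, 5 and 2 were higher in Treg cells and 12, 9, 10 and 7 in Tconv cells. After quantile normalization 86 of these pairs were higher and 6 lower. The list's median at 2 h was 0.97 in Treg and 1.11 in Tconv cells in vivo, against -0.06 and -0.05 over all genes, and 1.05 in Treg and 1.81 in Tconv cells in vitro, against -0.02 and 0.06. At 2 h Tnfaip3, which encodes the feedback inhibitor A20, rose by 1.84 ± 0.35 in Treg cells in vivo (adjusted p = 0.000986). Rel, an NF-kB subunit, rose in vitro at 2 h by 2.56 ± 0.42 in Treg and by 3.60 ± 0.42 in Tconv cells. Nfkb2 was the gene still up in Treg cells in vivo at 24 h (1.05 ± 0.19, adjusted p = 0.00627), a call lost without 24 h number 1 (adjusted p = 0.274) or 0 h number 2 (adjusted p = 0.251).

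Of the TRAF and adaptor genes (16 of 18 tested), 3, 1, 0 and 0 were higher in Treg cells in vivo at 2, 8, 24 and 72 h, with 1, 1, 0 and 0 lower. In Tconv cells in vivo 2, 2, 0 and 0 were higher and 1, 2, 0 and 0 lower. In vitro 2, 4, 4 and 1 were higher and 1, 0, 0 and 0 lower in Treg cells, and 6, 4, 9 and 1 were higher and 0, 2, 0 and 0 lower in Tconv cells. In all 39 of 256 pairs were higher and 8 lower, beside 7.13% and 2.23% of the tests over all genes. After quantile normalization 27 were higher and 20 lower. The median at 24 h in vitro was 0.29 in Treg and 0.72 in Tconv cells, against 0.07 and 0.23 over all genes. Traf1, an adaptor of the receptors described here, rose in vitro at 2 h by 1.31 ± 0.23 in Treg (adjusted p = 0.000425) and 2.08 ± 0.23 in Tconv cells (adjusted p = 4.77e-07). Of 17 other TNF receptors tested, at most 3 were higher and 2 lower at any time. The list's median lay between -0.30 and 0.02 over the 16 comparisons. Of its 272 pairs 20 were higher and 9 lower, beside 7.13% and 2.23% of the tests over all genes. Its 20 higher and 9 lower calls depend on the scaling: lower calls were the more numerous after quantile normalization (17 higher and 31 lower), with array weights (8 and 13), in separate fits (12 and 13), without Tconv in vitro 0 h number 1 (13 and 17) or number 2 (28 and 35), and without the 3 in vitro arrays of narrowest spread (13 and 14). Fas, the death receptor of activated T cells, rose in Treg cells in vitro by 1.53 ± 0.22 at 24 h (adjusted p = 6.85e-05). Of 6 other ligands tested, at most 2 were higher and 1 lower at any time, with 4 higher and 3 lower calls in all, and 4 and 6 after quantile normalization or without Tconv in vitro 0 h number 1. Each total for these ligands is out of 96 pairs, and over all genes 7.13% of the tests were called as higher and 2.23% as lower. Fasl, the ligand of Fas, was lower in Treg than in Tconv cells at 2 h in vivo (-2.61 ± 0.29, adjusted p = 1.07e-06) and in vitro (-2.87 ± 0.29, adjusted p = 2.71e-07).

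**Figure D5:**
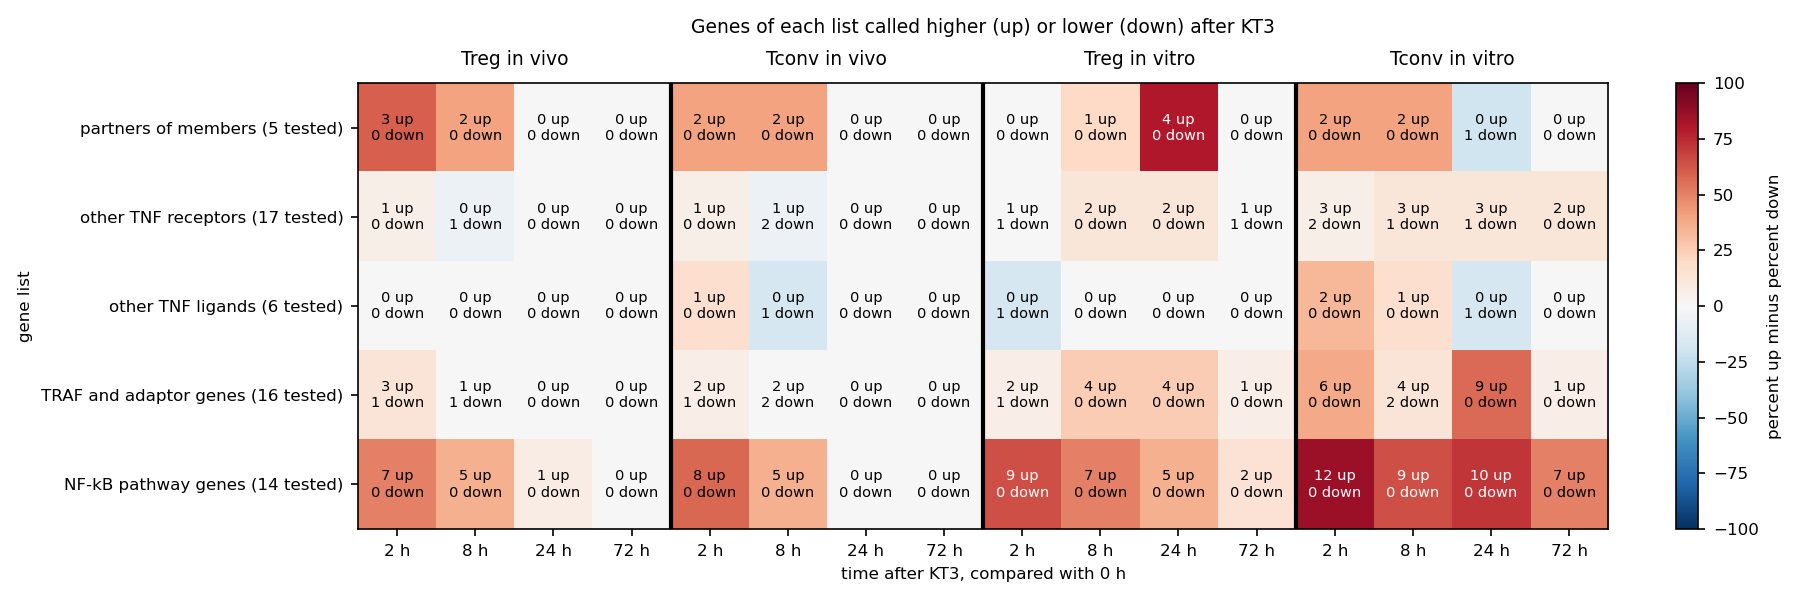
Number of genes higher (up, upper line of a cell) and lower (down, lower line) than 0 h at an adjusted p under 0.05. Rows are 5 lists of pathway genes, and columns are 2, 8, 24 and 72 h in each cell type and setting. Colour is the percent up minus the percent down. The NF-kB list reaches 12 of 14 tested genes higher in Tconv cells in vitro at 2 h, where 26.3% of all genes were called. It has 0 lower genes in any column.

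Over the means of the 20 groups without IgG, the pattern most like that of Tnfrsf4 was that of its neighbour Tnfrsf18 (Pearson r = 0.98), followed by Reep3 (0.94). For Tnfrsf18 the second was Sdf4 (0.95), the gene on the other side of Tnfrsf4. Tnfrsf9 was most like Cd200 (0.91) and Naa20 (0.90), and Tnfrsf1b like Pim1 (0.93) and Dennd5a (0.92). The ligands had lower values: Tnfsf4 with Cstb (0.82) and Micos13 (0.78), Tnfsf8 with Jak2 (0.76) and Cdip1 (0.75), and Tnfsf11 with Ier2 and Egr1 (0.81 each), both early response genes. Cd27 was most like Tomm34 (0.82) and Spata13 (0.81), and Tnfrsf25 like Zgpat (0.76) and Wars2 (0.74). Within the members, Tnfrsf4 had r = 0.90 with Tnfrsf1b and 0.88 with Tnfrsf9, and Tnfsf4 had -0.41 with Tnfrsf1b. The groups share their 0 h arrays and the split by cell type, so these values describe likeness only.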

How the data were processed

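The authors deposited intensity values, 1 column per array, processed with Affymetrix Power Tools and RMA per the submitters' processing notes and with RMA in GenePattern per the series' design text. No source used here gives their versions, and 0 columns belonged to no sample of the series. RMA subtracts background, is meant to equalise the distributions of arrays and summarises the probes of a transcript cluster, so small shifts shared by most genes can be hidden. The deposited values did not have equal distributions, however. Their interquartile range ran from 1.64 log2 units (Tconv in vitro 0 h number 1) to 3.21 (Treg in vivo 24 h number 1). The table holds 24922 clusters, of which 21425 have 1 gene symbol in the platform annotation, 1399 have several and 2098 are not listed. Names were matched by Entrez ID for 21347 clusters and 0 were updated. For the 921 symbols with more than 1 cluster the one of highest mean was kept, which left 19752 genes.

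Intensities, 4.8403 to 29756.3596, were taken as log2 with no offset. Genes above the array median (87.6 to 116.4) on at least 2 arrays were tested, 12425 in all, and 7327 were left out as dim. One limma 3.58.1 model (R 4.3.3) of 22 group means over 42 arrays gave every difference, with 20 residual and 5.01 prior degrees of freedom, two-sided tests and Benjamini-Hochberg adjustment per comparison. The IgG groups hold 1 array each, taken to vary like the others. The script was tested on simulated data. Python 3.11.15, numpy 2.4.6, pandas 2.3.3 and matplotlib 3.10.9 were used. Alternatives were quantile normalization, median centring, no filter, an offset of 16, the mean of clusters, separate fits per setting, the replicate number and the sort mode as covariates, array weights, and leaving out arrays. Array numbers pair the in vitro samples, since per the labels number 1 is always from a female and number 2 from a male of another age. The main model does not use this pairing. Values with the replicate number as a block are given where they change an in vitro call.

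The members and all lists were chosen with earlier results of these data known. By rule, all members are named, up to 3 called genes of each pathway list per direction and comparison, the 2 genes most like each member (unnamed gene models, small RNAs and receptor segments left out), and the promoters of the 3 members with most called responses. Of the other gene lists, B cell, macrophage, dendritic cell, neutrophil, platelet, erythroid, NK cell, CD8 T cell and plasma cell markers were averaged per array. Promoters of Tnfsf4 and Cd70 and protein sequences are not used here.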

Additional observations from a re-analysis of the deposited data

Results flagged for a closer look

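The following results were set apart because an effect differed between groups by a test of the difference itself. Of them, 4 responses differed between the cell types, given as the Treg change minus the Tconv change. In vivo at 24 h Tnfsf4 differed by -3.04 (adjusted p = 0.00185). In vitro at 8 h Tnfrsf9 differed by -1.88 (adjusted p = 0.017), Tnfrsf1b by -1.31 (adjusted p = 0.0312) and Tnfsf8 by 2.29 (adjusted p = 0.0498).

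The other 9 differed between the settings by the F-test, given as the largest in vivo change minus in vitro change. In Treg cells these were Tnfrsf9 with -1.56, Tnfrsf25 with 0.83, Cd27 with -1.30 and Tnfsf8 with -2.94. In Tconv cells they were Tnfrsf4 with -2.53, Tnfrsf9 with -1.64, Tnfrsf1b with -1.66, Tnfrsf25 with -0.79 and Tnfsf4 with 2.23. Of these 13 results, those of Tnfsf4 in both tests, of Tnfrsf9 in both F-tests, and of Tnfrsf4 in Tconv and Tnfrsf25 and Tnfsf8 in Treg cells in the F-test kept their calls in every alternative fit that gave them a value. Their causes were not tested.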

How the results depend on the processing

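An F-test has no direction, and in that of Tnfrsf9 in Tconv cells the time of the largest difference changed between fits. It was -1.64 at 72 h over all arrays. At 2 h it was 1.46 after quantile normalization, 1.61 without in vivo 0 h number 1 and 1.78 without in vivo 2 h number 2. The 2 h difference was positive over all arrays as well. No called difference at a single time turned direction in any fit. Of 125 called member results, 84 kept their call in every fit without 1 array, 79 under every other alternative and 64 under all. Called member results, given as the count over all arrays and then the lowest and highest over fits without 1 array, numbered 9 of 18 at 0 h (8 and 11), 20 of 72 for the in vivo response (15 and 22), 41 of 72 for the in vitro response (36 and 52), 39 of 72 for Treg against Tconv after KT3 (37 and 42), 4 of 72 for response differences (1 and 16), 9 of 18 for the settings (8 and 14) and 3 of 18 against IgG (2 and 3). With array weights, which gave both Tconv in vitro 0 h arrays 0.109, the counts were 4 at 0 h, 21 for the in vitro response and 2 for response differences. Response differences gave 2 calls after quantile normalization and 7 without the in vitro Tconv 0 h array that stands apart. Other counts of these kinds stayed within 1.5 times. Of 360 member results, array weights lost 29 calls and added 11, quantile normalization lost 17 and added 9, and median centring lost 5 and added 9. Of 342, separate fits per setting lost 17 and added 8. The separate fit per setting cannot give the comparison of the settings. Quantile normalization lowered the share of higher genes among all called ones, as in Tconv cells in vitro at 24 h (52.3% against 72.1%) and between the resting cells in vitro (51.1% of 3847 genes against 77.2% of 1396). With median centring the median over all genes was 0.40 in the first of these, against 0.23. In vitro the replicate number goes with the sex and age of the mouse, so the arrays are paired there. The main fit left this pairing out, and only the alternative with the replicate number as a block used it. In vivo the labels tie the number only to the sort mode, single for most arrays of number 1 and double for most of number 2. Differences between number 1 and number 2 correlated over 0.1 in 32 of 45 pairs of groups in vivo (-0.17 to 0.78) and in 28 of 45 in vitro (-0.45 to 0.71). The replicate block gave 9, 22, 45, 41, 6, 12 and 3 calls in the order above, and of 360 member results it lost 0 calls and added 13, of which 10 involve the in vitro arrays and are given beside their results, and 3 are in vivo.

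The alternatives for the pathway lists were added after the data were seen. Over the 16 responses the partners had 19 calls (12 to 32 without 1 array), other receptors 29 (24 to 63), other ligands 7 (6 to 17), TRAF and adaptor genes 47 (40 to 86) and NF-kB genes 87 (77 to 113). The highest counts all came without Tconv in vitro 0 h number 2. Separate fits gave the partners 12 calls, and quantile normalization gave the other receptors 48.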
